A study of Homo sapiens with 44 samples.

Results

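The haematopoietic colony-stimulating factors and IL23A were examined in Ccd18-Co cells, a fibroblast line from normal human colon, after exposure to single cytokines. The 5 genes were CSF1, CSF2, CSF3, IL34 and IL23A, found by their symbols among the 40663 gene symbols of the count table. They were chosen for their biology and with their levels in these same 44 libraries known, so those levels are given as a description and carry no test.

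Colony-stimulating factors are secreted proteins that keep myeloid cells alive and drive their growth and maturation. CSF1 (M-CSF) and IL34 both bind the CSF1 receptor of macrophages, CSF2 (GM-CSF) acts on granulocytes, macrophages and dendritic cells, and CSF3 (G-CSF) acts on neutrophils and their precursors. IL23A encodes the p19 chain of IL-23, which is secreted only when paired with the p40 chain from IL12B and which sustains IL-17-producing lymphocytes. In the gut these factors are made by several cell types, and fibroblasts are a known source of the colony-stimulating factors in inflamed tissue.

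The design had 11 groups of 4 libraries. After 72 h without serum, cultures received no cytokine (unstimulated) or 1 cytokine for 24 h. IL-1β was used at 0.1 ng/ml, and TNF, oncostatin M (OSM), IFNα, IFNγ, IL-6, IL-17A, IL-13, TGF-β1 and IL-22 at 10 ng/ml. All libraries came from 1 cell line, and the labels do not say whether the 4 replicates of a group were separate cultures, so the p-values given below for other genes measure only the spread between these libraries. Total counts ran from 742173 to 2213424 per library with a median of 1480883, and 3 counts, taken as the limit of what a count of 0 allows, were worth 1.38 to 3.82 CPM (counts scaled to a common library size, with TMM factors). Such limits cover counting error only. RNA was taken from whole cultures, so fewer cells making a transcript and less transcript per cell cannot be told apart.

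The fibroblast label was checked first. All 9 fibroblast markers were detected, with a median over libraries of 15700 CPM for DCN and 8180 CPM for COL1A1, which encode decorin and a chain of type I collagen. The leukocyte genes ITGAM, TYROBP, SPI1, AIF1, CD3D, CD3E and CD2 had 0 counts in every library, and PTPRC, EPCAM, CDH1 and PECAM1 passed 3 counts in 0 libraries. KRT8 passed 3 counts in 10 libraries, TRAC, VWF and LYZ in 2 each and CD14 in 1. CD68 and VIL1, listed as myeloid and epithelial markers, passed 3 counts in 34 and 42 libraries. Their medians were 5.01 and 8.4 CPM and their highest values 73.3 and 26.4 CPM.

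Replicates 3 and 4 stood apart from replicates 1 and 2 for inflammatory genes. The summed level of the 137 other genes that were higher with IL-1β lay higher in both replicates 3 and 4 than in both replicates 1 and 2 in 9 of 11 groups, the unstimulated group included (mean 14170 against 6550 CPM). The labels name no batch. Values or calls within the pairs are therefore given beside many of the results below.

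The genes lie on 5 chromosomes and overlap no other annotated gene (GRCh38, GENCODE v44, plus strand throughout). CSF1 is at chr1:109910242-109930992, CSF2 at chr5:132073789-132076170, CSF3 at chr17:40015361-40017813, IL34 at chr16:70579895-70660682 and IL23A at chr12:56334174-56340410. Of the 5, CSF2 and IL23A had a promoter in the RefSeq table used (GRCh38.p14). Both are shown as the 250 bases before the RefSeq transcription start, on the plus strand and written 5′ to 3′, because these genes were high in the same groups. For IL23A this is the start of the canonical transcript, and the gene's interval reaches further upstream because other annotated transcripts begin there. Capitals mark the matches to 4 motifs, those of NF-κB (10 bases), AP-1 (TGANTCA), C/EBP (TTNNGCAA) and the TATA box (TATAAA). IL23A held matches to 3 of them, and the CSF2 window none.

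CSF2 (chr5:132073539-132073788): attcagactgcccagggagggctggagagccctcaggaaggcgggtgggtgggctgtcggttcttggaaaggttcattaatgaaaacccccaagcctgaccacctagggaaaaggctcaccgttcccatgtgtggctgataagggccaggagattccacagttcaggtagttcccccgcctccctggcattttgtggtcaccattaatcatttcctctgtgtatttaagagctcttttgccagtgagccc

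IL23A (chr12:56338634-56338883): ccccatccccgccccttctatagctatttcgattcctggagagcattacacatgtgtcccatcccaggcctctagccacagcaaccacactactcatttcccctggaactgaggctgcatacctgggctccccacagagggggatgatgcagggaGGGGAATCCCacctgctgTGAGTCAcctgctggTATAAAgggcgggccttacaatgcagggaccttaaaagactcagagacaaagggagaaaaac

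In IL23A the NF-κB match began at -95 from the start and read as a match on both strands, the AP-1 match began at -77 and the TATA match at -62. Searched on both strands of all 34961 promoters in windows of this length, the NF-κB motif was held by 5.21%, TGANTCA by 6.54%, TATAAA by 10.7% and TTNNGCAA by 9.04%. These matches describe letters in the reference and not binding in these cells, and a missing match says only that these letters are not in this window.

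The transcripts also differed in the AU-rich pentamer ATTTA, which in 3′ untranslated regions (UTRs) is bound by proteins that hasten the decay of cytokine mRNAs. On the canonical transcripts CSF2 held 8 copies in 318 bases of 3′ UTR (25.16 per kb), IL23A 4 in 306 bases (13.07 per kb), CSF3 7 in 854 bases (8.2 per kb), CSF1 4 in 2154 bases (1.86 per kb) and IL34 0 in 495 bases. As many copies as in CSF2 occurred in 0.06% of 3′ UTRs of like length (within 20%), against 1.86% for IL23A, 2.14% for CSF3 and 56.63% for CSF1. Each share counts the gene itself, and among the 1556 3′ UTRs of like length the CSF2 share is CSF2 alone. In CSF2 5 of the 8 copies overlapped in a run of 21 bases, shown with 4 bases on each side and the run in capitals. A run as long was present in 0.16% of the 19538 3′ UTRs read.

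CSF2 3′ UTR: aaatATTTATTTATTTATTTATTTAagtt

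**Figure D1:**
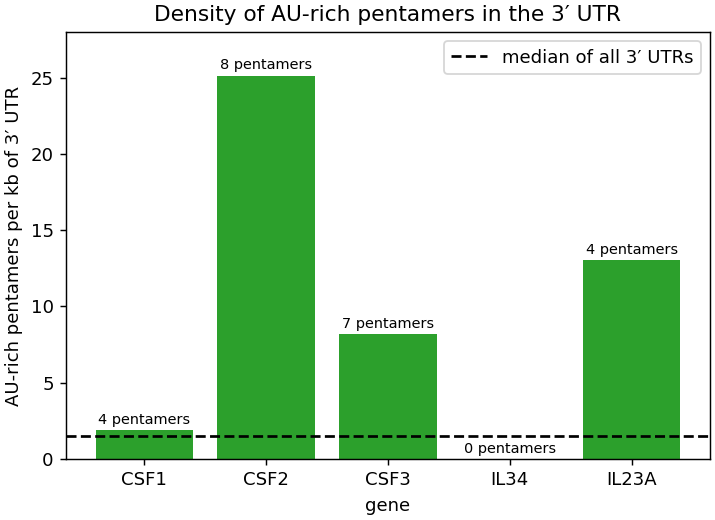
Copies of the AU-rich pentamer per kb of 3′ UTR (vertical axis) for each gene (horizontal axis), from the canonical GENCODE v44 transcript, with the median of 19538 3′ UTRs as a dashed line at 1.5 per kb. CSF2, IL23A and CSF3 stand at 25.16, 13.07 and 8.2 per kb, CSF1 is near the median at 1.86 per kb, and IL34 has 0.

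The 5 genes fell into 3 patterns by level. CSF2, CSF3 and IL23A were at or near 0 in unstimulated cells and high with IL-1β and TNF, CSF1 was low in unstimulated cells and highest with IFNα and IFNγ, and IL34 was not measured above background. A gene was called when its adjusted p was under 0.05 and its log2 fold change beyond 1.5 in either direction (edgeR, over 9513 genes). IL34 did not pass the filter on low counts, so 4 of the 5 genes were in the fit. With IL-1β 3 of them were called, all higher, where 1.47% of all genes tested were called higher, and with TNF 3 were called higher, where 1.85% were. With IFNα 1 was called higher (2.46% of all genes) and with IFNγ 1 (2.4%). With IL-6, IL-13, IL-17A, IL-22, TGF-β1 and OSM 0 of the 4 were called by edgeR and 0 by DESeq2, and at an unadjusted p under 0.05 there was 1 each for IL-17A, IL-22 and OSM and 0 for the others. The shares of all genes called in either direction were 0.0105%, 1.47%, 0.452%, 0%, 1.7% and 1.3% for those 6 cytokines in that order. DESeq2 gave no adjusted p to the 4 genes with IL-22, 3 with OSM and 1 each with IL-17A and TGF-β1, so it could not call those. The genes were chosen on these levels, so nothing is read from these counts.

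**Figure D2:**
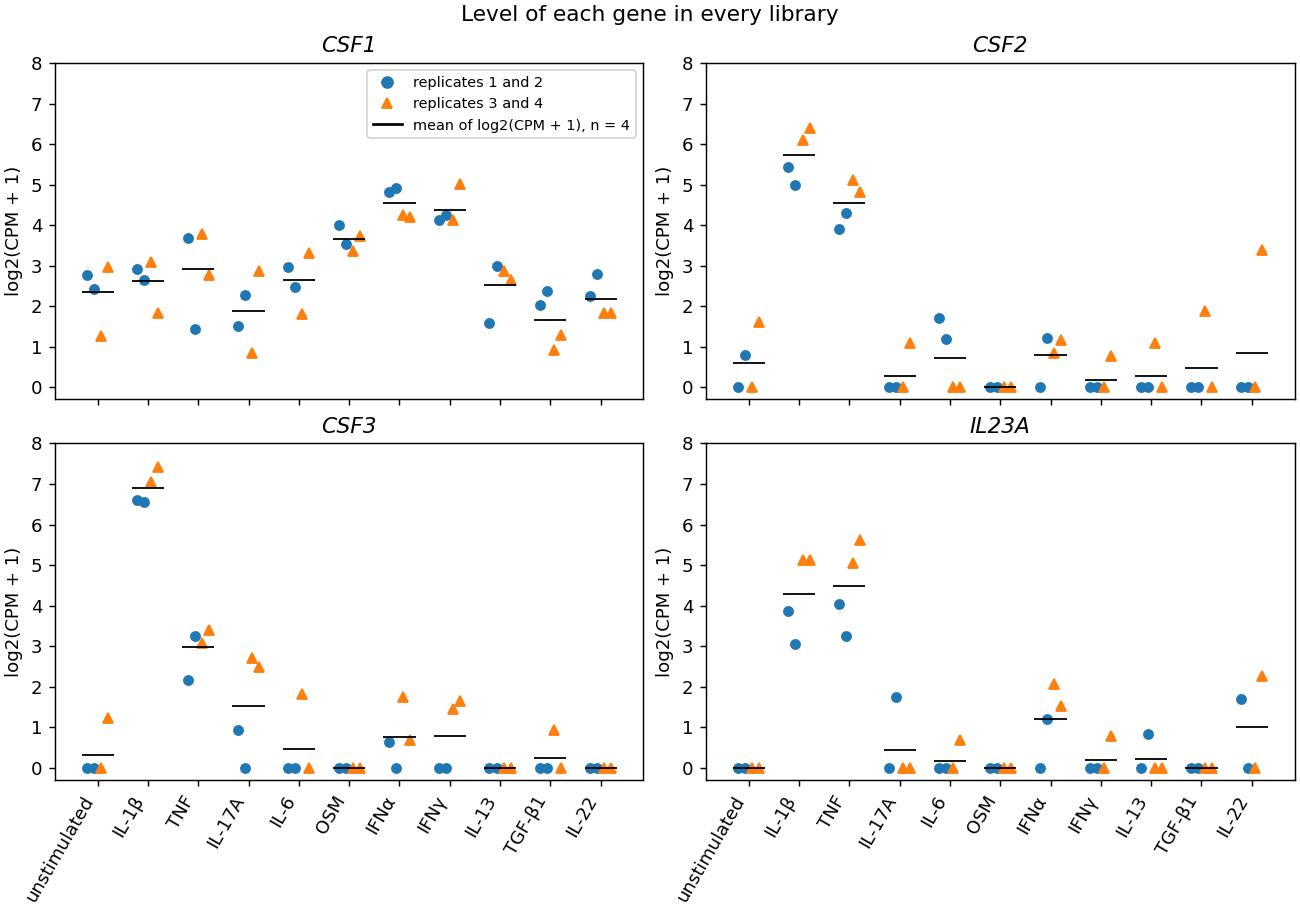
Level of CSF1, CSF2, CSF3 and IL23A, each in its own panel, as log2(CPM + 1) (vertical axis) in every library of the 11 groups (horizontal axis). Circles are replicates 1 and 2, triangles replicates 3 and 4, and bars the mean of 4 libraries. CSF2, CSF3 and IL23A are high in all 4 libraries with IL-1β and TNF, and CSF1 stands highest with IFNα and IFNγ.

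CSF2, the gene of GM-CSF, had counts of 0, 1, 0 and 3 in the 4 unstimulated libraries. With IL-1β it had 84, 47, 108 and 130 counts, or 42.15, 30.99, 68.21 and 83.86 CPM. With TNF it had 20, 22, 45 and 51 counts, or 14.03, 18.84, 33.51 and 27.16 CPM. Every library of both groups lay above every unstimulated library, as was so for 6.49% of all genes with IL-1β and 6.74% with TNF. No unstimulated library passed 3 counts, so the folds are lower bounds set against 3 counts per library. The mean of 56.3 ± 24.1 CPM (SD, n = 4) with IL-1β was at least 29.0-fold higher, and the mean of 23.4 ± 8.66 CPM (SD, n = 4) with TNF at least 12.0-fold higher. Libraries of the IL-1β and TNF groups overlapped, and the fitted log2 difference between them was 1.26 (SE 0.72).

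In the other groups CSF2 was at background. It reached 4 counts in 1 library with IL-6, 15 counts in IL-22 replicate 4 beside 0 in the other 3 IL-22 libraries, and at most 3 counts in every other library. OSM gave 0 counts in all 4 libraries. The order of group means below TNF is therefore not resolved, and neighbours in it overlapped throughout.

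CSF3, the gene of the neutrophil growth factor G-CSF, had its highest level with IL-1β. It had 0, 0, 0 and 2 counts in unstimulated cells and 192, 141, 207 and 262 with IL-1β, or 96.35, 92.96, 130.7 and 169.0 CPM. With TNF it had 5, 10, 10 and 18 counts, or 3.51, 8.56, 7.45 and 9.59 CPM. All libraries of both groups lay above the unstimulated libraries, as was so for 6.49% of all genes with IL-1β and 6.74% with TNF. All IL-1β libraries also lay above all TNF libraries, as was so for 4.34% of all genes. The mean with IL-1β (122 ± 35.5 CPM, SD, n = 4) was at least 63.0-fold higher than in unstimulated cells, and the mean with TNF (7.28 ± 2.66 CPM, SD, n = 4) at least 3.75-fold higher. In a fit of the 8 libraries of TNF and unstimulated cells alone, CSF3 did not pass the filter on low counts and had no value. Between the cytokines the means differed 16.8-fold, with a fitted log2 difference of 4.05 (SE 0.66) in favour of IL-1β. In this direct comparison CSF3 was the 1 gene of the 4 called higher with IL-1β, where 0.189% of all genes were, and none was called lower, where 0.179% were.

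IL-17A was the next group in order for CSF3, with 2, 0, 7 and 8 counts and a mean of 2.77 ± 2.72 CPM (SD, n = 4). These libraries overlapped both the TNF libraries and the unstimulated ones, and 2 of the 4 passed 3 counts. The fitted log2 difference from unstimulated cells was 2.79 (SE 1.08), and it was not called. IL-6 replicate 3 had 4 counts and every other library at most 3, with 0 counts in all libraries of the IL-13, IL-22 and OSM groups.

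IL23A, the p19 chain of IL-23, had 0 counts in all 4 unstimulated libraries, which allows up to 1.46 to 2.17 CPM. With IL-1β it had 27, 11, 54 and 53 counts, or 13.55, 7.25, 34.1 and 34.2 CPM. With TNF it had 22, 10, 43 and 90 counts, or 15.4, 8.56, 32.0 and 47.9 CPM. The libraries of both groups lay above all unstimulated libraries, as was so for 6.49% of all genes with IL-1β and 6.74% with TNF. They also lay above the libraries of all other groups, for which no share is given, and overlapped each other. Against 3 counts per unstimulated library the means were at least 11.5-fold higher with IL-1β (22.3 ± 14.0 CPM, SD, n = 4) and at least 13.4-fold higher with TNF (26.0 ± 17.6 CPM, SD, n = 4). Unlike CSF3, IL23A had a slightly lower mean with IL-1β than with TNF, and the fitted log2 difference of -0.23 (SE 0.76) was smaller than its error.

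Low counts of IL23A were seen with IFNα (0, 2, 4 and 3) and IL-22 (3, 0, 0 and 6). In each of these groups 1 library passed 3 counts, which does not separate them from background at this depth, though IL23A was called with IFNα when its replicate 1 was left out. The remaining groups had at most 3 counts in a library, and TGF-β1 and OSM had 0 throughout.

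Against IL-17A, which like IL-1β and TNF feeds into NF-κB signalling, CSF2, CSF3 and IL23A were called higher with IL-1β (0.841% of all genes were), and CSF2 and IL23A with TNF (1.74% of all genes). On replicates 1 and 2 alone the calls of IL23A were lost in both comparisons. The fitted log2 difference of CSF3 between TNF and IL-17A was 1.41 (SE 0.72), and between IL-1β and IL-17A 5.46 (SE 0.72).

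The makeup of the response within a library differed between IL-1β and TNF. The ratio of CSF3 to CSF2 counts, which does not depend on the scaling of libraries, was 2.29, 3.0, 1.92 and 2.02 in the 4 IL-1β libraries and 0.25, 0.455, 0.222 and 0.353 in the 4 TNF libraries. CSF3 thus exceeded CSF2 in every IL-1β library and fell short of it in every TNF library. The ratio of IL23A to CSF2 counts went the other way, from a median of 0.365 with IL-1β (range 0.234 to 0.5) to 1.03 with TNF (range 0.455 to 1.76), and TNF replicate 2 overlapped the IL-1β libraries. These ratios restate levels on which the genes were chosen and were not tested.

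**Figure D3:**
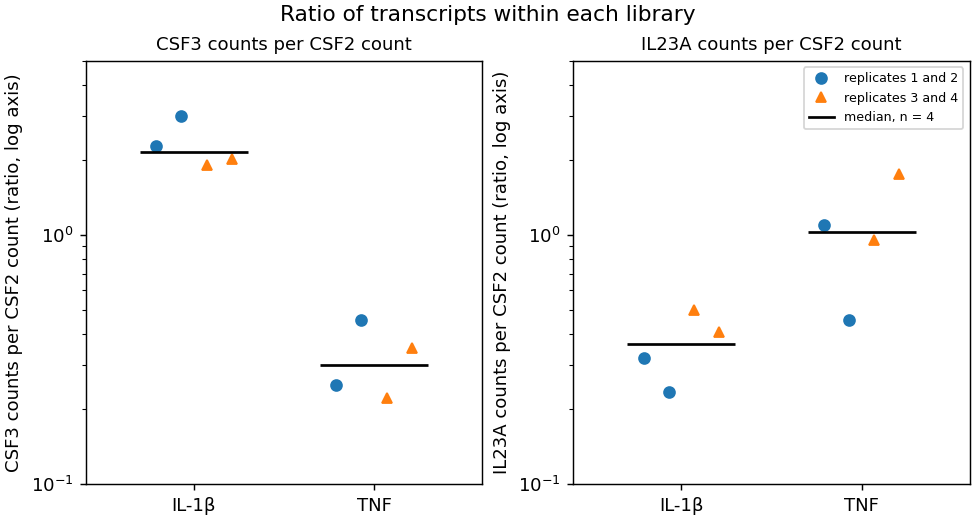
Counts of CSF3 (left panel) and IL23A (right panel) per count of CSF2 within each library (vertical axes, log scale) for the IL-1β and TNF groups. Circles are replicates 1 and 2, triangles replicates 3 and 4, and bars the median of 4 libraries: CSF3 per CSF2 lies at 1.92 to 3.0 with IL-1β and at 0.222 to 0.455 with TNF, whereas IL23A per CSF2 overlaps between the groups.

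Compared per length, on CPM per kb of canonical transcript, the level with IL-1β was 81.3 for CSF3, 71.5 for CSF2, 21.5 for IL23A and 1.37 for CSF1. With TNF it was 29.7 for CSF2, 25.1 for IL23A, 4.84 for CSF3 and 2.01 for CSF1. CSF3 led the first order and came behind CSF2 and IL23A in the second. Short isoforms of CSF1 would raise its value on this scale.

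A difference between the replicate pairs was also seen for these genes in some groups. Both replicates 3 and 4 lay above both replicates 1 and 2 for CSF2 with IL-1β and TNF (ratio of means 2.08 and 1.85), for IL23A with both (3.28 and 3.33) and for CSF3 with IL-1β (1.58). Of 11 groups this split held in 2 for CSF2, 4 for CSF3 and 3 for IL23A. The opposite held in 1 for CSF2, with IL-6, and in 0 for CSF3 and IL23A. No share of all genes is given for this split, and nothing is read from these counts. CSF3 with IL-17A had means of 0.461 CPM in replicates 1 and 2 and 5.07 CPM in replicates 3 and 4. CSF1 had replicates 3 and 4 above in 0 of 11 groups and below in 3, among them IFNα, with means of 28.4 CPM in replicates 1 and 2 and 17.7 CPM in replicates 3 and 4. Fitted on replicates 1 and 2 alone, the log2 difference of IL-1β from TNF was 3.96 (SE 0.80) for CSF3, 1.14 (SE 0.91) for CSF2 and -0.22 (SE 1.28) for IL23A. On replicates 3 and 4 alone it was 4.10 (SE 0.74), 1.31 (SE 0.86) and -0.24 (SE 0.84). Against unstimulated cells the 3 genes were called with TNF within each pair, and with IL-1β within replicates 3 and 4, whereas in replicates 1 and 2 the call of IL23A with IL-1β was lost. The part of whatever separates the pairs in the levels themselves was not tested.

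CSF1, the macrophage growth factor M-CSF, had counts in all 44 libraries. Unstimulated libraries had 12, 6, 2 and 10 counts, a mean of 4.59 ± 2.35 CPM (SD, n = 4). With IFNα there were 50, 45, 23 and 28 counts (27.4, 29.4, 18.2 and 17.3 CPM), and with IFNγ 22, 22, 19 and 44 counts (16.5, 18.2, 16.4 and 31.1 CPM). Every library of both groups lay above every unstimulated library, as was so for 7.96% of all genes with IFNα and 6.05% with IFNγ. The means were 5.02-fold higher with IFNα (23.1 ± 6.22 CPM, SD, n = 4) and 4.47-fold higher with IFNγ (20.5 ± 7.11 CPM, SD, n = 4). Fitted log2 differences were 2.30 (SE 0.53) and 2.13 (SE 0.53), and the libraries of the 2 interferon groups overlapped.

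OSM came next in order for CSF1. Its 4 libraries had 25, 18, 14 and 15 counts and a mean of 11.8 ± 2.52 CPM (SD, n = 4), and all lay above the unstimulated libraries, as was so for 4.87% of all genes. The highest OSM library, at 15.1 CPM, was close to the lowest IFNγ library, at 16.4 CPM. The 2.58-fold higher mean (log2 difference 1.34, SE 0.53) was not called. TNF followed at 8.04 ± 5.21 CPM (SD, n = 4), from 17, 2, 17 and 11 counts, and overlapped the unstimulated group. The lowest mean, 2.42 ± 1.52 CPM (SD, n = 4), was with TGF-β1 at 4, 4, 1 and 2 counts, where 2 of 4 libraries passed 3 counts and the log2 difference of -0.95 (SE 0.62) was not called. From TNF down, each group overlapped the next in order.

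The CSF1 values rest on few counts. On replicates 1 and 2 alone the log2 difference was 2.46 (SE 0.73) with IFNα and 1.75 (SE 0.74) with IFNγ, and on replicates 3 and 4 alone 2.10 (SE 0.90) and 2.52 (SE 0.91), and of these the IFNα difference in replicates 1 and 2 was called. Markers of macrophages were looked at beside this gene. The summed level of the 10 myeloid markers was 37.7 to 73.9 CPM with IFNα, 8.26 to 20.5 CPM with IFNγ and 0 to 9.23 CPM in unstimulated cells, of which CD68, a lysosomal protein, made up a mean of 58.7, 13.8 and 2.85 CPM. ITGAM, TYROBP, SPI1 and AIF1 were at 0 counts in all 44 libraries.

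IL34, the second ligand of the CSF1 receptor, had 4 counts in IL-17A replicate 2 and 0 counts in the other 43 libraries. A count of 0 allows a level of up to 1.38 to 3.82 CPM, depending on the library. No level and no difference between groups could be given for it at this depth.

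Across the 11 group means of log2 CPM, the genes high with IL-1β and TNF followed each other, with r = 0.97 for CSF2 and IL23A, 0.919 for CSF2 and CSF3 and 0.847 for CSF3 and IL23A. CSF1 had r between -0.08 and 0.02 with these 3. The points share libraries and depth, and most lie at background for 3 of the genes, so the coefficients rest on the IL-1β and TNF groups. The 5 genes most like CSF2 were CCL20 (r = 0.975), EREG, SERPINB2, C15orf48 and NEFM (0.955). CCL20 is a chemokine for CCR6-bearing lymphocytes and dendritic cells, and EREG an EGF receptor ligand. Those most like IL23A were SERPINB2 (0.98), GRB14, NEFM, EREG and TNFAIP3 (0.949), the last an NF-κB-induced inhibitor of NF-κB signalling, and those most like CSF3 were CXCL2 (0.944), a neutrophil chemokine, MTHFD2L, FGF2, C15orf48 and VNN1 (0.93). Among the genes closest to CSF1 were TAP2 (0.973), IL15RA, BCL7B and PSMB8 (0.934), of which TAP2 and PSMB8 serve antigen presentation. With a prior count of 0.5 in place of 2, C15orf48 left the lists of CSF2 and CSF3, VNN1 that of CSF3 and TNFAIP3 that of IL23A.

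Other genes of these pathways were taken from lists of 55 genes, of which 29 were measured well enough to be tested. Of 8 receptor chains 5 passed 3 counts in no library. CSF1R had at most 6 counts in a library, CSF3R at most 2 and IL23R at most 3, and over all 44 libraries CSF2RA had 42, CSF2RB 1 and IL12RB1 5. SDC1, a syndecan that can bind IL-34, was the 1 receptor chain tested, with up to 30 counts and more than 3 in 36 libraries. The partner of IL23A was likewise at background, since IL12B, the p40 chain, had 5 counts in all libraries together and 0 in every IL-1β and TNF library. With IL-1β and TNF the p19 transcript was thus present while that of the chain it pairs with had no count. IL12A, which pairs with p40 to form IL-12, had 0 counts in all 4 IL-1β libraries and 0, 0, 4 and 5 with TNF.

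Of the pathway genes, 2 were called higher and 0 lower with IL-1β, and 4 higher and 0 lower with TNF. With IL-17A 2 were called higher and 0 lower, with IFNγ 2 higher and 1 lower, and with TGF-β1 0 higher and 2 lower. For the other 5 cytokines 0 of the 29 were called by edgeR, with 1 to 8 at an unadjusted p under 0.05. DESeq2 called 1 with IFNα and 0 with the others, but it gave no adjusted p to 24 of the 29 with IL-22. The same held for 11 with OSM and 6 with IL-13, and genes without an adjusted p could not be called. Over all genes tested, 2.78% were called in either direction with IL-1β, 4.19% with TNF, 0.452% with IL-17A, 3.53% with IFNγ, 3.98% with IFNα and 1.7% with TGF-β1. At an adjusted p under 0.05 (edgeR) with no fold threshold, 2 of the 29 were higher and 3 lower with IL-1β. With TNF 6 were higher and 3 lower on that measure. The shares of all genes above include the fold threshold and do not apply to it, and no share is given for it. The median log2 difference of the 29 genes was 0.22 with IL-1β and 0.01 with TNF, against -0.01 and -0.02 over all genes tested. The adjusted p-values that follow come from edgeR (quasi-likelihood), with Benjamini-Hochberg correction over the 9513 genes.

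NFKBIZ, an inducible nuclear partner of NF-κB, separated the cytokines. It had 139, 139, 150 and 150 counts with IL-1β, 185, 87, 61 and 143 with IL-17A, 45, 18, 28 and 42 with TNF and 12, 10, 20 and 20 in unstimulated cells. The IL-1β libraries lay above all unstimulated libraries, as was so for 6.49% of all genes, and above all TNF libraries, as was so for 4.34%. NFKBIZ also lay above both of these groups in the IL-17A libraries, for which no share of all genes is given. It rose with IL-1β by 3.12 on the log2 scale (SE 0.37, adjusted p = 2.63e-08) and with IL-17A by 2.81 (SE 0.37, adjusted p = 4.15e-06), and it was higher with IL-1β than with TNF by 1.96 (SE 0.34, adjusted p = 0.000609). These calls held in all 8 fits without 1 library. On replicates 3 and 4 alone the adjusted p with IL-17A was 0.0857, and on replicates 1 and 2 alone that of IL-1β against TNF was 0.0553. CSF3 shared with NFKBIZ the higher level under IL-1β than under TNF, but with IL-17A it was at 0 to 8 counts.

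NFKB1, the p105/p50 subunit of NF-κB, rose with IL-1β (log2 1.73, SE 0.51, adjusted p = 0.025) and with TNF (1.81, SE 0.51, adjusted p = 0.0137). The calls were kept in 4 of 8 fits without 1 library for IL-1β and in 6 of 8 for TNF, with the largest adjusted p, 0.118 and 0.0677, without unstimulated replicate 4. The AP-1 gene JUNB rose with TNF (4.10, SE 1.10, adjusted p = 0.00898) in all 8 fits without 1 library, and with IL-17A (4.29, SE 1.10, adjusted p = 0.0303), where the call was kept in 2 of 8. RUNX1, a transcription factor of haematopoiesis, rose with TNF (4.85, SE 1.5, adjusted p = 0.0256), a call kept in 4 of 8 fits. It had 0, 12, 23 and 2 counts with TNF, so not all of these libraries passed 3 counts, and 0, 0, 0 and 1 in unstimulated cells. Its mean was 7.12 CPM with TNF and 6.16 CPM with OSM, where it was not called. The largest adjusted p without 1 library was 0.169 for JUNB with IL-17A, without IL-17A replicate 3, and 0.129 for RUNX1, without TNF replicate 3. On replicates 1 and 2 alone the NFKB1 and JUNB calls were lost. The NFKB1 log2 difference there was 1.04 with IL-1β (adjusted p = 0.384) and 0.95 with TNF (adjusted p = 0.353). For JUNB the adjusted p was 0.101 with TNF and 0.376 with IL-17A. RUNX1 lost its call on each pair alone, with an adjusted p of 0.174 on replicates 1 and 2 and 0.179 on replicates 3 and 4.

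TSLP, an epithelial and stromal cytokine that acts on dendritic cells, had the lowest adjusted p of the 29 pathway genes between IL-1β and TNF. It had 97, 121, 212 and 319 counts with TNF, 12, 10, 15 and 10 with IL-1β and 20, 25, 25 and 48 in unstimulated cells. It rose with TNF (log2 2.69, SE 0.45, adjusted p = 2.89e-05) and lay lower with IL-1β than with TNF by a log2 difference of -4.12 (SE 0.50, adjusted p = 5.28e-07), and both calls held in all 8 fits without 1 library. TSLP and CSF3 thus stood in opposite order under IL-1β and TNF, while CSF2 and IL23A had overlapping levels. With IFNγ TSLP fell by 2.51 on the log2 scale (SE 0.56, adjusted p = 0.00168), also in all 8 fits, with an adjusted p of 0.114 on replicates 1 and 2 alone.

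The genes that changed with the interferons and TGF-β1 were few. JAK2, a kinase used by the GM-CSF and IFNγ receptors, rose with IFNγ (log2 1.88, SE 0.45, adjusted p = 0.00359) in all 8 fits, with an adjusted p of 0.0869 on replicates 3 and 4 alone. IL7, a lymphocyte growth factor, rose with IFNγ (1.73, SE 0.59, adjusted p = 0.048), a call kept in 2 of 8 fits and with an adjusted p of 0.144 without unstimulated replicate 4. The IL7 call was lost on each pair alone, with an adjusted p of 0.101 on replicates 1 and 2 and 0.232 on replicates 3 and 4. With TGF-β1 ETS1 fell by 2.67 on the log2 scale (SE 0.77, adjusted p = 0.027, kept in 3 of 8 fits and 0.133 without unstimulated replicate 2). The ETS1 call was also lost on each pair alone, with an adjusted p of 0.113 on replicates 1 and 2 and 0.357 on replicates 3 and 4. ZFP36L2, a protein that binds AU-rich elements and destabilises the mRNAs that carry them, fell with TGF-β1 by 1.61 on the log2 scale (SE 0.25, adjusted p = 1.78e-05, kept in 6 of 8 fits). On replicates 3 and 4 alone its log2 difference was -1.496 (adjusted p = 0.00567), just short of the fold threshold. With IL-1β and TNF none of the 7 tested regulators of AU-rich mRNAs passed the fold threshold. ZFP36L2 was lower there too, with log2 differences of -1.17 (SE 0.24, adjusted p = 0.000623) and -1.32 (SE 0.24, adjusted p = 0.000115), and ZFP36L1 was lower with TNF by a log2 difference of -0.56 (SE 0.16, adjusted p = 0.0145).

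**Figure D4:**
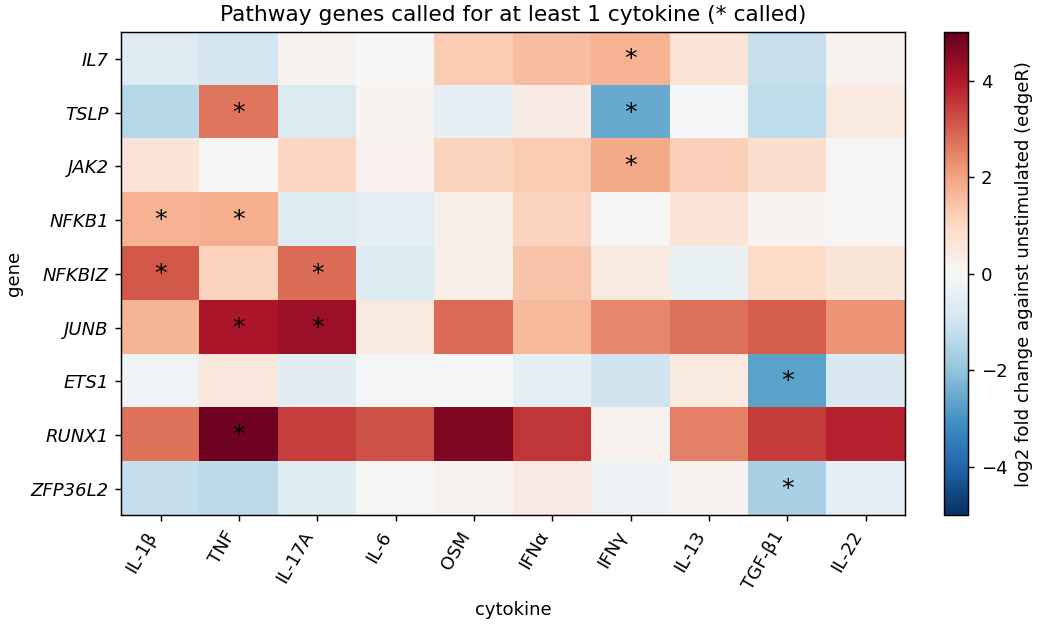
Fitted log2 fold change against unstimulated cells (colour scale, red higher and blue lower) of the 9 pathway genes called for at least 1 cytokine (rows) with each of 10 cytokines (columns), n = 4 libraries per group. Stars mark calls at an adjusted p under 0.05 and a log2 fold change beyond 1.5, among them NFKBIZ with IL-1β and IL-17A and TSLP with TNF (higher) and IFNγ (lower).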

How the data were processed

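Bulk RNA-seq of 44 libraries was analysed. The authors checked reads with FastQC 0.11.9 and MultiQC 1.14 and quantified them with kallisto 0.48.0 on hg38, per the labels. The deposited values are estimated counts per gene symbol, of which 5.73% were not whole (tolerance 1e-06); they were rounded to whole numbers here. Pseudo-aligned reads of overlapping or near-identical genes can be split between them.

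Groups came from the labels. The labels give the IL-1β dose as 0.1 ng/ml, whereas a legend gives 0.01 ng/ml. Genes low by edgeR's filterByExpr were removed, libraries were scaled by TMM, and 11 groups were fitted together with edgeR 4.0.16 (quasi-likelihood, R 4.3.3, 33 residual degrees of freedom), with Benjamini-Hochberg adjustment over 9513 genes. CPM values use TMM library sizes; log2 CPM for correlations used a prior count of 2. The common coefficient of biological variation was 0.331. DESeq2 1.42.0, other filters and thresholds, leaving out each library, and the replicate pairs alone were tried. The pipeline was tested on simulated data.

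The 5 genes and all lists were chosen with earlier results of these data known. The 5 genes are given in full, pathway genes could be named when called for at least 1 cytokine, and similar genes were the 5 with the highest Pearson r over 11 group means, of which 1 is not reported here. No 2 replicates were identical; the lowest chi-square per degree of freedom among 66 replicate pairs was 3.21. Promoters were read from a RefSeq table and 3′ UTRs from GENCODE v44.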

Additional observations from a re-analysis of the deposited data

Results flagged for a closer look

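Dixon's test was applied to the 24 sets of 4 libraries in which at least 1 library passed 3 counts, and 4 were set apart. Chance sets apart about 1 in 20 sets of ordinary values, but 3 of the 4 hold 1 library with counts beside 3 at 0, which the test always sets apart. CSF1 was 31.1 CPM in IFNγ replicate 4, against 16.4 to 18.2 CPM in the other 3 libraries. CSF2 was 9.55 CPM, from 15 counts, in IL-22 replicate 4 and 0 in the other 3. CSF3 was 2.52 CPM in IL-6 replicate 3 and IL34 3.10 CPM in IL-17A replicate 2, from 4 counts each, and both were 0 in the other 3 libraries of their group. The last 3 rest on single libraries, and no source for them was tested.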

How the results depend on the processing

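The counts of the 5 genes called were within 1.5 times the main count in 186 of 190 refits. Cytokines with a main count of 0 stayed at 0 in every refit, so much of this agreement is between counts of 0. The bound also takes in 2 in place of 3, as with IL-1β on replicates 1 and 2 and with TNF on the 8 libraries compared. The 4 counts outside it were all with IFNα or IFNγ. The log2 differences called for these genes kept their sign in all 237 refits, and 11 of the 36 not called changed sign in at least 1, 27 of 582 refits in all. CSF3 with TNF did not pass the filter on low counts when the 8 libraries compared were fitted alone. With replicates 1 and 2 only, the count with IFNγ was 0, and with replicates 3 and 4 only it was 0 with IFNα and 0 with IFNγ. Without 1 library the count ranged from 1 to 2 with IFNα, 2 without IFNα replicate 1, where IL23A joined CSF1, and did not move from 3 with IL-1β and TNF, 1 with IFNγ and 0 with the others. DESeq2 gave no adjusted p to the 4 genes with IL-22, 3 of them with OSM, 1 with IL-17A and 1 with TGF-β1. The log2 difference of CSF2 with IL-22 ran from -3.11 without its replicate 4 to 3.24, and that of CSF2 with IL-6 was 0.44 on all libraries and -3.67 on replicates 3 and 4 only.

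Counts of pathway genes called moved more. They were 1 with IL-17A and 1 with IFNα by DESeq2, 1 with IL-13 and 1 with OSM without the filter on low counts, and 1 each with IL-17A, IFNα and TGF-β1 when the 8 libraries compared were fitted alone. At an absolute log2 fold change above 1 they were 5 with IL-1β, 2 with IL-13, 1 with IFNα and 8 with TNF, and with no fold threshold 5 with IL-1β, 2 with IL-13, 1 with IFNα, 5 with IFNγ and 9 with TNF. With replicates 1 and 2 only they were 1 each with IL-17A, IFNα and IFNγ, and with replicates 3 and 4 only 0 with IL-17A, 1 with IFNγ and 0 with TGF-β1. Without 1 library they ranged from 1 to 4 with IL-1β, 0 to 2 with IL-13, 1 to 2 with IL-17A, 0 to 2 with IFNα, 2 to 3 with IFNγ, 0 to 3 with TGF-β1, 2 to 5 with TNF and 0 to 0 with the others. Beyond fewer samples or genes the cause was not tested.

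Same-numbered libraries showed little correlation: 6 of 40 same-numbered pairs with the unstimulated group had a correlation of deviations over 0.1 (range -0.0865 to 0.281). Over all groups the mean correlation was 0.0237 for libraries of the same replicate number and -0.0077 for those of different numbers. These values cannot decide whether the samples were paired, since the summed level of genes higher with IL-1β split by replicate number in 9 of 11 groups. With the replicate number as a block the 5 genes gave 3 calls with IL-1β, 3 with TNF, 1 with IFNα and 1 with IFNγ. Depth limits all values near 3 counts, IL34 and the unstimulated levels of CSF2, CSF3 and IL23A above all.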
